A study of Mus musculus with 20 samples.

Results

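The 9 genes described here were measured in the skin of mice that lack Zfp36 in keratinocytes and of their littermates: the myeloid C-type lectins Clec4d, Clec4e, Clec4n, Clec4a2, Clec5a and Clec7a, the triggering receptors Trem1 and Trem3, and Cd14. These 9 genes, of 22180 with a value, were chosen by family and symbol at a time when results of the same 20 arrays were known, among them the imiquimod response of Clec4e in knockout skin. Their differences between groups are therefore a description, and the counts below do not support a general statement about myeloid receptors. Each gene had exactly 1 probe set with a single gene symbol, so choosing the brightest probe set decided nothing for them.

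Abdominal skin was profiled on 20 Affymetrix arrays, 1 mouse each, with 5 mice in each of 4 groups. The knockout mice carried Zfp36 fl/fl and K14 cre, a recombinase driven by a promoter active in basal keratinocytes, and the controls were Zfp36 fl/fl littermates without it, so both genotypes carried the floxed gene and other skin cells of the knockouts kept theirs. Zfp36 encodes tristetraprolin, which promotes the decay of messenger RNAs with AU-rich elements. The groups were imiquimod-treated knockouts, imiquimod-treated controls, mock-treated knockouts and mock-treated controls. Imiquimod, a Toll-like receptor 7 agonist used to inflame mouse skin, was put on for 5 consecutive days, and skin was taken 4 h after the last application. No age or sex was used here.

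The C-type lectins of myeloid cells recognise sugars and lipids of microbes and products of damaged cells. Clec4e (Mincle), Clec4d (also called MCL) and Clec4n (Dectin-2) signal through the Fc receptor gamma chain, encoded by Fcer1g, and the kinase Syk. Clec7a (Dectin-1) binds beta-glucans of fungi and carries its own activating motif, whereas Clec4a2 carries an inhibitory one. Clec5a, Trem1 and Trem3 pair with the adaptor encoded by Tyrobp, and Cd14 delivers lipopolysaccharide to the receptor encoded by Tlr4 and its partner encoded by Ly96. In skin these receptors are known mainly from neutrophils, monocytes, macrophages and dendritic cells.

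Clec4n, Clec4d and Clec4e are consecutive protein-coding genes on mouse chromosome 6 in RefSeq's gene table, and Clec4a2 lies in the same run, separated from Clec4n by Clec4b2. Trem1 and Trem3 are neighbours on chromosome 17. RefSeq promoter windows on build GRCm38.p6, from 250 bases before to 50 bases after a gene's start, were used for 6 of the 9 genes, and 4 are shown. Clec4n and Trem3 had no window, and Cd14 was left out of the search. Clec4d and Clec4e had the largest differences of the 9 with imiquimod in knockout skin and between genotypes under imiquimod, Clec5a had a smaller one, and Clec4a2, from the same run of genes, passed no test between genotypes. The sequences are read along the gene's strand, 5′ to 3′, and capitals mark matches to 4 short motifs.

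Clec4e promoter, chr6:123289822-123290121, minus strand: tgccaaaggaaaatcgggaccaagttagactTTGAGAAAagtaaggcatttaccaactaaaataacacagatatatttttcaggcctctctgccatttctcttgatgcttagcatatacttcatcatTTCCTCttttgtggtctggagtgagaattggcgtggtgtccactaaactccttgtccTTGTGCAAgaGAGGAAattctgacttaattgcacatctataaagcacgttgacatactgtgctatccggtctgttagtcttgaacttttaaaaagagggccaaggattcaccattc

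Clec4d promoter, chr6:123261857-123262156, plus strand: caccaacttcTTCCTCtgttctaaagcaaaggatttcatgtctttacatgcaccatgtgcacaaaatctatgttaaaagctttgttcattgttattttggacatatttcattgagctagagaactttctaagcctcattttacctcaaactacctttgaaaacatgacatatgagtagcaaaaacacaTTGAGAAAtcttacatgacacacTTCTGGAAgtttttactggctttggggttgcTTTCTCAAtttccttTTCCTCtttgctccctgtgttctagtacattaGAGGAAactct

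Clec5a promoter, chr6:40585756-40586055, minus strand: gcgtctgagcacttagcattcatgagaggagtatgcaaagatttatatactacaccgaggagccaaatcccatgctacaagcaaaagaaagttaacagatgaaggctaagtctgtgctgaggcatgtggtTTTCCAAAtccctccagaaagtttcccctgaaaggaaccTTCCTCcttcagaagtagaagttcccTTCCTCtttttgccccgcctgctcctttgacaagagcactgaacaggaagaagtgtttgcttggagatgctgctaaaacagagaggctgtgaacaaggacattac

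Clec4a2 promoter, chr6:123122440-123122739, plus strand: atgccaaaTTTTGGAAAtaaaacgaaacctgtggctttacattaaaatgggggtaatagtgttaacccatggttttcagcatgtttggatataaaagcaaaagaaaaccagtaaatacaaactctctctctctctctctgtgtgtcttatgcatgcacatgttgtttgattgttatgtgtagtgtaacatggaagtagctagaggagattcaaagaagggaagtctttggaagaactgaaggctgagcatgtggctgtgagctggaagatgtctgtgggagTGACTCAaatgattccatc

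The letters searched, on both strands, were GAGGAA for PU.1, TGANTCA for AP-1, GGGNNTTTC for NF-kB and TTNNGNAA for C/EBP, factors known from myeloid gene regulation. GAGGAA occurred 3 times in the Clec4d window, 2 times in that of Clec4e and 2 times in that of Clec5a, 1 time in those of Clec7a and Trem1 and 0 times in that of Clec4a2. It occurred in 28.3% of all 32851 promoter windows of this length. TTNNGNAA had 3 matches for Clec4d, 2 for Clec4e, 1 for Clec5a, 1 for Trem1, 0 for Clec7a and 2 overlapping ones for Clec4a2, and occurred in 40.7% of windows. In the Clec4e window a TTNNGNAA match began 66 bases before the start and a GAGGAA match 56 bases before it. TGANTCA occurred in the Clec4a2 window and in 7.81% of all windows, and GGGNNTTTC in none of the 6 and in 4.36% of all. These matches describe letters in a window and were not set against binding data.

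All values below are the deposited ones, taken as log2, so a difference of 1 is a doubling if that base is right. Differences come from limma, fitted over all 22180 genes and all 20 arrays, with 95% intervals from the same fit. A gene is called where its adjusted p (Benjamini-Hochberg over all genes) was under 0.05. The arrays were alike as wholes, with medians of 4.94 to 5.04 and correlations within groups of 0.953 to 0.988. Zfp36 itself was below the controls in every knockout array, at 5.47, 7.41, 6.12, 7.18 and 5.82 in imiquimod-treated knockouts against 7.68 to 8.40 in imiquimod-treated controls, and at 3.47 to 7.12 in mock-treated knockouts against 7.22 to 7.74 in mock-treated controls. Its difference did not pass limma (adjusted p = 0.221 with imiquimod and 0.999 with mock treatment), and it is not known here whether its probes lie in the deleted part. Keratinocyte markers, which define the labelled tissue, were present, with Krt14 at 10.5 to 12.3 over all arrays.

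One array stood apart before any group was compared. Replicate 4 of the imiquimod-treated knockouts was the highest of its group in 9 of the 9 genes, whereas it was the highest of its group in 23.8% of all genes. It exceeded the next array by at least 1 in 6 of the 9, against 0.302% of all genes. The gap was 2.50 for Trem1, 2.20 for Clec4d, 2.04 for Clec7a and Cd14, 1.95 for Clec4e and 1.09 for Clec5a. Results that rest on it are given with and without it.

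**Figure D1:**
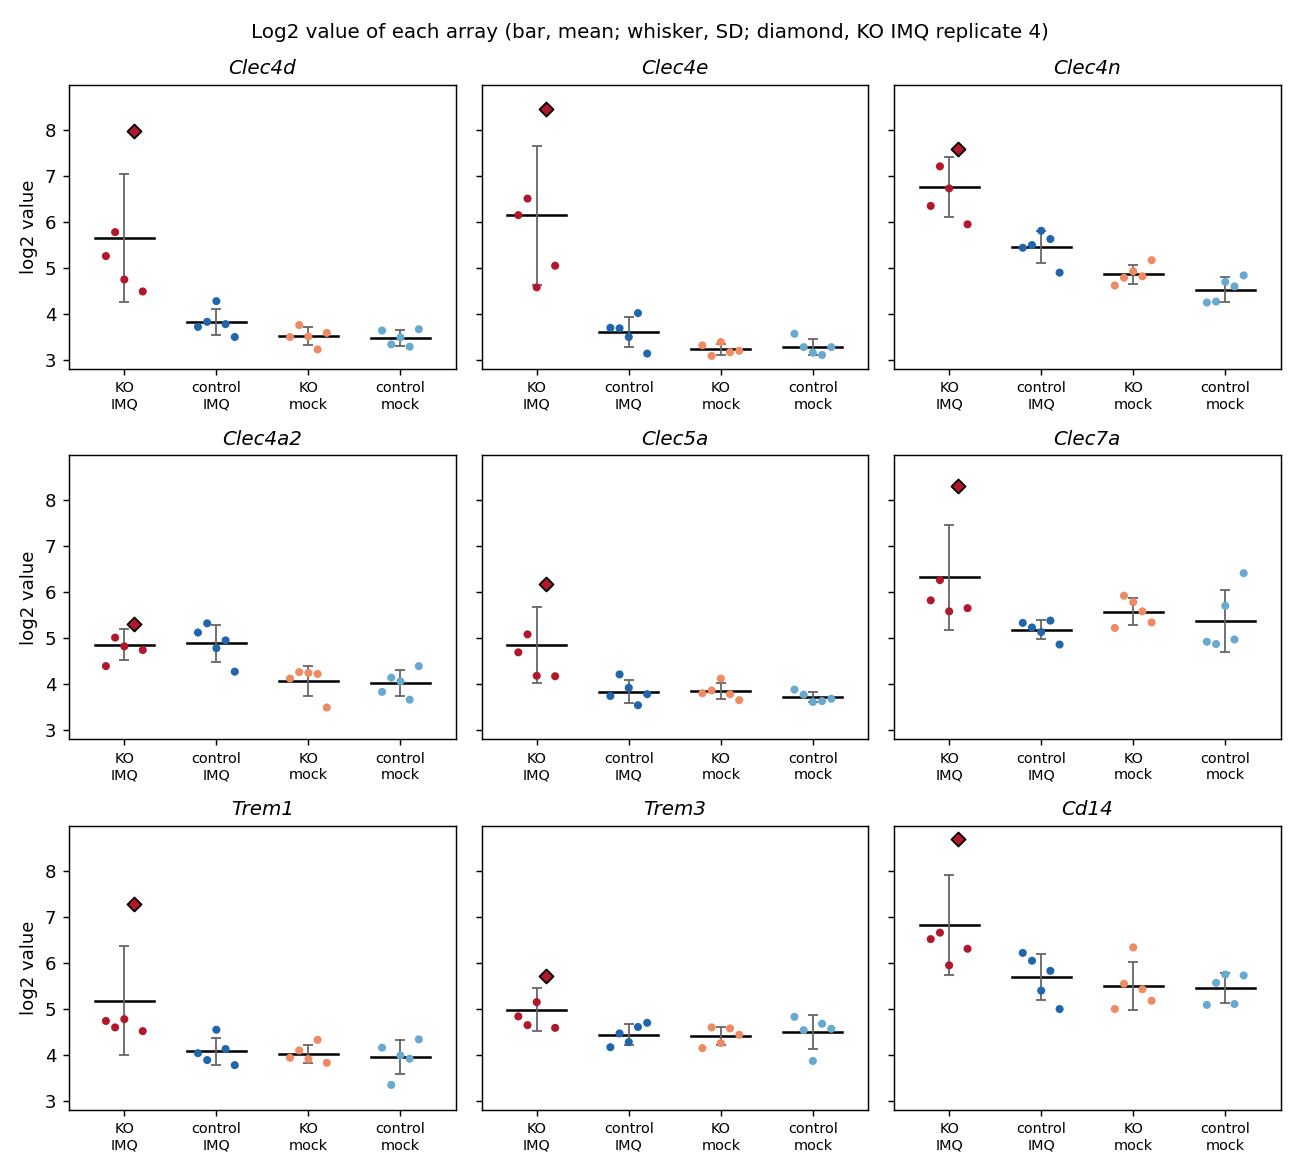
Log2 value (y axis) of each of the 9 genes in every array, by group (x axis; KO, knockout; IMQ, imiquimod), with the mean as a bar and the SD as a whisker (n = 5). Imiquimod-treated knockouts had the highest mean for 8 of the 9 genes, the exception being Clec4a2, and the diamond, their replicate 4, was the top point of that group in every panel.

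Clec4e, which encodes a receptor for mycobacterial glycolipid and for a nuclear protein released by dying cells, had the largest difference of the 9 with imiquimod in knockout skin and between genotypes under imiquimod. In imiquimod-treated skin it measured 6.14, 6.50, 4.57, 8.45 and 5.04 in knockouts, against 3.69, 3.68, 3.49, 4.01 and 3.13 in controls. In mock-treated skin it measured 3.31, 3.08, 3.38, 3.16 and 3.19 in knockouts, against 3.56, 3.27, 3.15, 3.10 and 3.27 in controls. Every imiquimod-treated knockout lay above every other array, and the other 3 groups overlapped. The knockout excess under imiquimod was 2.54 ± 0.44 (SE, n = 5 per group; 5.82-fold; limma adjusted p = 0.0117), and 1.96 ± 0.28 without replicate 4 (adjusted p = 0.00172). Imiquimod raised Clec4e by 2.92 ± 0.44 in knockout skin (adjusted p = 8.29e-05), whereas in control skin the difference was 0.33 (95% interval -0.60 to 1.26; adjusted p = 0.745). The difference between these responses was 2.59 ± 0.63, which did not pass (adjusted p = 0.333, unadjusted p = 0.000535).

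Clec4d, the gene next to it, encodes a receptor that forms a complex with that of Clec4e. Imiquimod-treated knockouts measured 5.25, 5.77, 4.74, 7.97 and 4.48, against 3.71, 3.82, 4.27, 3.77 and 3.49 in imiquimod-treated controls. Mock-treated knockouts measured 3.22 to 3.75, against 3.28 to 3.66 in mock-treated controls. The imiquimod-treated knockouts did not overlap with the other arrays. The knockout excess under imiquimod was 1.83 ± 0.41 (SE, n = 5 per group; 3.56-fold; limma adjusted p = 0.0465). This call was close to the threshold and held in 4 of the 20 fits that left out 1 array. It was lost without any 1 mock-treated array, without imiquimod-treated control replicate 1, 2, 4 or 5 and without imiquimod-treated knockout replicate 1 or 2 (adjusted p from 0.0501 to 0.122). Without knockout imiquimod replicate 4, the highest array, the excess was smaller at 1.25 ± 0.20 and passed (adjusted p = 0.00556).

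Clec4n encodes a receptor for fungal mannans. With imiquimod it measured 6.34, 7.20, 6.72, 7.57 and 5.94 in knockouts, against 5.43, 5.49, 5.80, 5.62 and 4.89 in controls. With mock treatment it measured 4.61, 4.78, 4.92, 4.81 and 5.16 in knockouts, against 4.24, 4.26, 4.69, 4.59 and 4.83 in controls. Each imiquimod-treated group lay above its own mock-treated group without overlap, and the imiquimod-treated knockouts lay above the imiquimod-treated controls. Clec4n rose with imiquimod by 1.90 ± 0.23 in knockouts (SE, n = 5 per group; limma adjusted p = 7.09e-06) and by 0.92 ± 0.23 in controls (adjusted p = 0.0131). The knockout excess under imiquimod was 1.31 ± 0.23 (2.48-fold; adjusted p = 0.0117), and 1.10 ± 0.21 without replicate 4 (adjusted p = 0.0313). The difference between the responses was 0.97 ± 0.33 and did not pass (adjusted p = 0.589).

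Clec4a2, the inhibitory receptor of the same run of genes, rose with imiquimod in both genotypes. In imiquimod-treated skin it measured 4.39, 5.01, 4.82, 5.31 and 4.74 in knockouts, against 5.12, 5.32, 4.78, 4.95 and 4.27 in controls. In mock-treated skin it measured 4.12, 4.26, 4.24, 4.22 and 3.49 in knockouts, against 3.83, 4.14, 4.06, 3.66 and 4.39 in controls. Knockouts and controls overlapped under each treatment. It rose with imiquimod by 0.79 ± 0.20 in knockouts (SE, n = 5 per group; limma adjusted p = 0.00689) and by 0.87 ± 0.20 in controls (adjusted p = 0.00597). The genotype difference under imiquimod was -0.03, with a 95% interval of -0.45 to 0.38, and the difference between the responses was -0.08 (interval -0.67 to 0.50).

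Clec5a, an activating receptor that pairs with the Tyrobp adaptor, measured 4.69, 5.08, 4.18, 6.17 and 4.17 in imiquimod-treated knockouts, against 3.74, 4.21, 3.92, 3.54 and 3.78 in imiquimod-treated controls. Mock-treated arrays held 3.65 to 4.12 in knockouts and 3.61 to 3.88 in controls. The imiquimod-treated knockouts lay above the mock-treated knockouts, and 2 of them, replicates 3 and 5, lay within the range of the imiquimod-treated controls. Clec5a rose with imiquimod in knockout skin by 1.02 ± 0.26 (SE, n = 5 per group; limma adjusted p = 0.00692) and by 0.69 without replicate 4 (adjusted p = 0.00565). In control skin the difference was 0.12 (95% interval -0.41 to 0.66). The knockout excess under imiquimod was 1.02 ± 0.26 and missed the threshold (adjusted p = 0.0855). It was 0.69 ± 0.16 without replicate 4 and missed it there too (adjusted p = 0.0945). It passed in 2 of 20 fits without 1 array, those without imiquimod-treated knockout replicate 3 or 5 (adjusted p = 0.0322 and 0.0285). Of 13 other settings it passed in 2, with array weights (adjusted p = 0.0389) and with hair genes as a covariate (adjusted p = 0.0492).

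Clec7a encodes the main receptor for fungal beta-glucan. Its imiquimod-treated knockouts measured 5.82, 6.26, 5.58, 8.30 and 5.65, against 5.33, 5.23, 5.13, 5.38 and 4.86 in imiquimod-treated controls. Its mock-treated knockouts measured 5.22, 5.92, 5.78, 5.58 and 5.34, against 4.92, 4.87, 5.70, 4.97 and 6.41 in mock-treated controls. The imiquimod-treated genotypes did not overlap, but each imiquimod-treated group overlapped with its own mock-treated group. Clec7a passed none of the 5 limma comparisons; its genotype difference under imiquimod was 1.14 ± 0.39 (SE, n = 5 per group; adjusted p = 0.273) and 0.64 without replicate 4. Its imiquimod difference was 0.75 in knockouts (95% interval -0.06 to 1.57), or 0.26 without replicate 4, and -0.19 in controls (interval -1.002 to 0.626).

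Trem1, an amplifier of inflammatory signals in neutrophils and monocytes, had 1 value far from the rest. Imiquimod-treated knockouts measured 4.73, 4.59, 4.77, 7.27 and 4.51, against 4.03, 3.88, 4.54, 4.12 and 3.77 in imiquimod-treated controls. Mock-treated arrays held 3.82 to 4.32 in knockouts and 3.34 to 4.33 in controls. The imiquimod-treated knockouts lay above the mock-treated knockouts, and overlapped with the imiquimod-treated controls through control replicate 3 at 4.54. Trem1 rose with imiquimod in knockout skin by 1.16 ± 0.37 (SE, n = 5 per group; limma adjusted p = 0.0282), and by 0.64 ± 0.17 without replicate 4 (adjusted p = 0.0128). The call was lost without mock-treated knockout replicate 3 or 5 (adjusted p = 0.0511 and 0.0570). In control skin the difference was 0.13 (95% interval -0.64 to 0.89). The genotype difference under imiquimod was 1.11 ± 0.37 with all arrays and 0.58 without replicate 4, and passed in neither case (adjusted p = 0.248 and 0.266).

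Trem3, a mouse receptor related to Trem1 and adjacent to it, had the smallest difference among the 8 genes called in knockout skin. It measured 4.83, 4.64, 5.14, 5.70 and 4.58 in imiquimod-treated knockouts and 4.16 to 4.69 in imiquimod-treated controls. In mock-treated skin it measured 4.14 to 4.59 in knockouts and 3.86 to 4.82 in controls. All 4 groups overlapped in part. The imiquimod difference in knockouts was 0.58 ± 0.19 (SE, n = 5 per group; limma adjusted p = 0.0363) and lost its call without replicate 4 (0.40; adjusted p = 0.114), without imiquimod-treated knockout replicate 3 (adjusted p = 0.0789) and without mock-treated knockout replicate 1, 3 or 5 (adjusted p = 0.0843, 0.0731 and 0.0556).

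Cd14 encodes the lipopolysaccharide co-receptor of monocytes and macrophages. With imiquimod it measured 6.51, 6.65, 5.94, 8.69 and 6.30 in knockouts, against 6.21, 6.04, 5.39, 5.82 and 4.99 in controls. With mock treatment it measured 4.99, 5.54, 6.33, 5.42 and 5.17 in knockouts, against 5.08, 5.56, 5.74, 5.10 and 5.72 in controls. Imiquimod-treated knockouts overlapped with both of their comparison groups. Cd14 rose with imiquimod in knockout skin by 1.33 ± 0.38 (SE, n = 5 per group; limma adjusted p = 0.0163), and by 0.86 ± 0.26 without replicate 4 (adjusted p = 0.0272). In control skin the difference was 0.25 (95% interval -0.55 to 1.05), and the genotype difference under imiquimod was 1.13 ± 0.38 (adjusted p = 0.264), or 0.66 ± 0.26 without replicate 4 (adjusted p = 0.534).

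Over the 9 genes, 8 were called higher with imiquimod in knockout skin and 0 lower, where 11.1% of all genes were called higher and 9.71% lower. In control skin 2 of the 9, Clec4n and Clec4a2, were called higher, where 6.47% of all genes were called higher and 4.37% lower. Knockout exceeded control under imiquimod in 3 of the 9, Clec4d, Clec4e and Clec4n, where 0.374% of all genes were called higher and 0.171% lower. In mock-treated skin limma called 0 of the 9, 0 at an unadjusted p under 0.05, with 0.00902% of all genes higher and 0% lower. The difference between the responses was called for 0 of the 9, with 5 at an unadjusted p under 0.05, and for 0.018% of all genes higher and 0% lower. Because these genes were taken up with such results in view, no inference is drawn from the counts.

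Other settings ended some of these calls. With only the groups of the comparison in the fit, the genotype differences under imiquimod had the same size, 1.83 for Clec4d, 2.54 for Clec4e and 1.31 for Clec4n, but did not pass (limma adjusted p = 0.182, 0.0911 and 0.0805), and Trem1, Trem3 and Cd14 lost their calls with imiquimod in knockout skin. Skeletal muscle markers averaged 7.93 to 8.86 in imiquimod-treated knockouts, against 8.85 to 9.83 in imiquimod-treated controls, and with their mean as a covariate the genotype differences were 1.45 for Clec4d, 2.11 for Clec4e and 1.35 for Clec4n and did not pass (adjusted p = 0.228, 0.107 and 0.0822). Clec5a, Trem1 and Trem3 lost their calls in knockout skin with muscle or adipocyte markers as a covariate. Hair genes averaged 5.38 to 10.2 in imiquimod-treated controls, against 6.38 to 11.1 in mock-treated controls, and with their mean as a covariate Clec4n at 0.73 and Clec4a2 at 0.54 lost their calls in control skin (adjusted p = 0.1003 and 0.0915). With sex-linked genes as a covariate none of the 9 passed with imiquimod in either genotype, where 8 of all genes were called in knockout skin and 45 in control skin. Clec4e then had a difference of 3.36 ± 1.185 (SE) in knockout skin and Clec4a2 one of 0.10 ± 0.50. Their SEs in the main fit were 0.44 and 0.20. Of 4 sex-linked genes measured, 1 was called lower with imiquimod in each genotype (9.71% of all genes in knockout and 4.37% in control skin). The mean level of the 4 was 4.57 to 4.86 over all arrays. The part of muscle, fat and hair content and of sex in the results was not tested further.

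**Figure D2:**
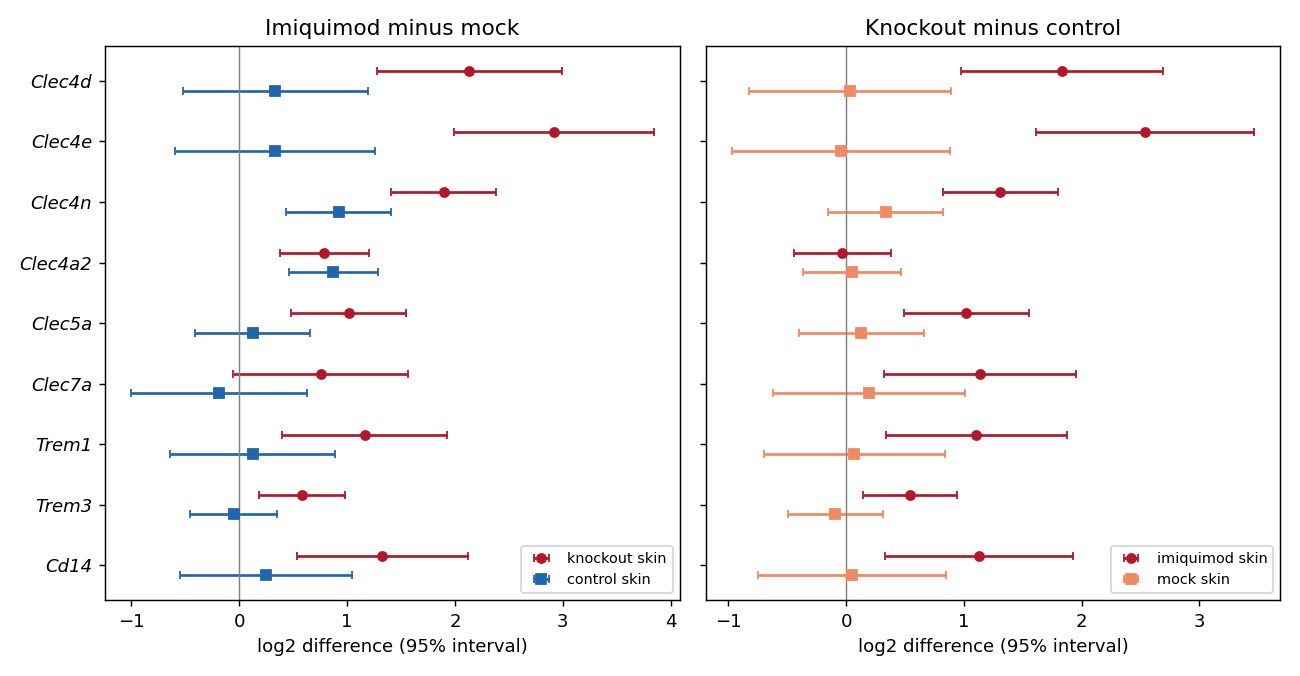
Log2 differences (x axis) with 95% intervals for the 9 genes (rows): imiquimod minus mock in knockout and control skin (left), and knockout minus control in imiquimod- and mock-treated skin (right). Intervals for mock-treated skin all include 0, and Clec4a2 has nearly the same imiquimod difference in both genotypes, 0.79 in knockouts and 0.87 in controls.

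Counted by arrays alone, the imiquimod-treated knockouts lay wholly above the mock-treated knockouts for 6 of the 9 genes (7.16% of all genes) and wholly above the imiquimod-treated controls for 4 (1.30% of all genes), namely Clec4d, Clec4e, Clec4n and Clec7a. Imiquimod-treated controls lay wholly above mock-treated controls for Clec4n only (5.60% of all genes), and mock-treated knockouts above mock-treated controls for 0 of the 9 (0.189% of all genes). Without knockout imiquimod replicate 4, 7 of the 9 were called higher with imiquimod in knockout skin (9.24% of all genes) and the same 3 higher in knockouts under imiquimod (0.212% of all genes).

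**Figure D3:**
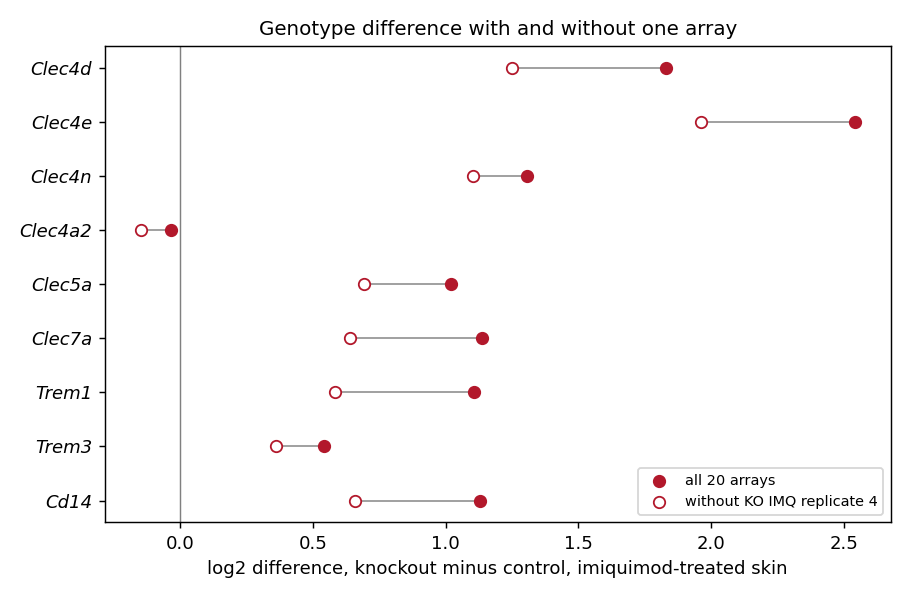
Log2 difference between knockout and control in imiquimod-treated skin (x axis) for the 9 genes (rows), with all 20 arrays (filled) and without knockout imiquimod replicate 4 (open). The difference was 1.11 for Trem1 and 2.54 for Clec4e with all arrays, and 0.58 for Trem1 and 1.96 for Clec4e without that one.

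Part of a list of neutrophil marker genes moved with these values. Of 19 neutrophil markers measured, 10 rose with imiquimod in knockout skin and 9 were not called, with 15 differences above 0. In control skin 5 rose and 14 were not called, with 13 differences above 0. Under imiquimod 2, S100a8 and S100a9, were higher in knockouts and 17 were not called. These 2 also stand in the ligand list below. Of all genes, 11.1% were called higher with imiquimod in knockout skin, 6.47% in control skin and 0.374% in knockouts under imiquimod. The shares called lower were 9.71%, 4.37% and 0.171%. The same shares apply to the lists that follow. The mean level of the 19 markers was 5.94 to 7.30 in imiquimod-treated knockouts, against 5.08 to 5.81 in imiquimod-treated controls. It was 4.70 to 4.97 in mock-treated knockouts, against 4.59 to 4.70 in mock-treated controls. The array at 7.30 was replicate 4 of the imiquimod-treated knockouts, with the other 4 at 5.94 to 6.23. Ly6g, a defining marker, was dim throughout, at 3.02 to 4.65 in imiquimod-treated knockouts and 2.97 to 3.42 in imiquimod-treated controls, whereas the neutrophil chemokine receptor gene Cxcr2 measured 7.33 to 8.48 in imiquimod-treated knockouts and 6.85 to 7.57 in imiquimod-treated controls. In whole skin, more cells of a type and more RNA per cell cannot be told apart. The part of neutrophil content in the differences of the 9 genes was not tested.

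Markers of monocytes and macrophages overlapped between all 4 groups in their mean level. Of 20 measured, 3 rose and 1 fell with imiquimod in knockout skin, and 4 rose and 2 fell in control skin. Their mean level was 7.17 to 7.57 in imiquimod-treated knockouts, against 6.96 to 7.63 in imiquimod-treated controls, and replicate 4 of the knockouts lay inside this range at 7.32. Arg1, which encodes arginase, was the 1 marker called between genotypes under imiquimod, at 1.06 ± 0.13 (SE, n = 5 per group; limma adjusted p = 0.000398).

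**Figure D4:**
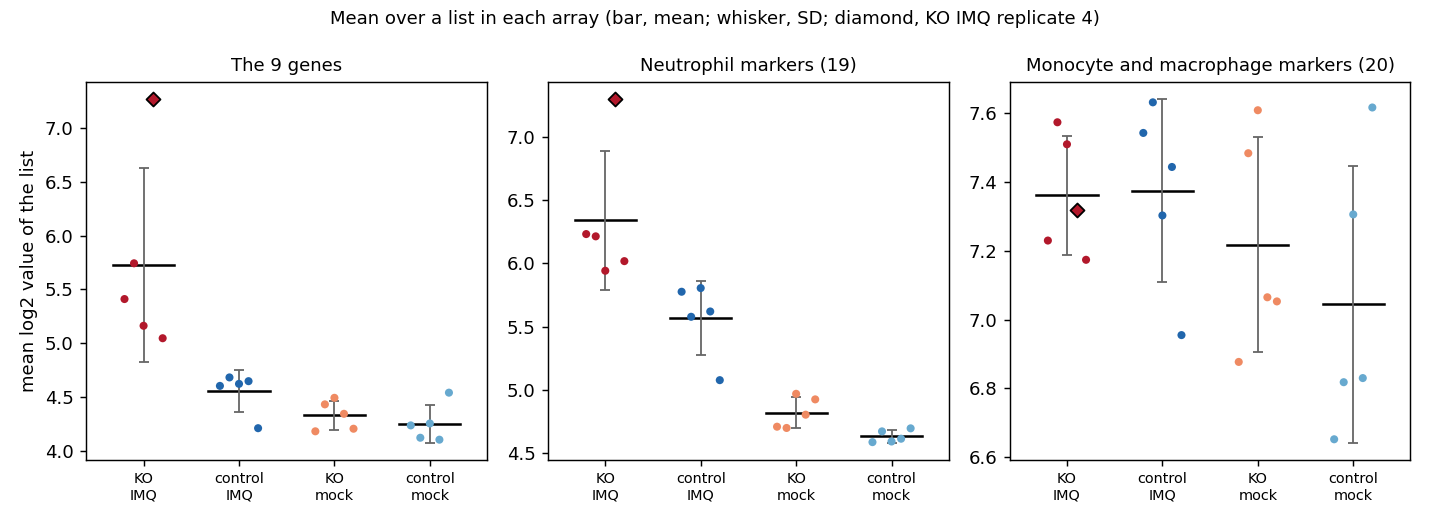
Mean log2 value (y axis, different in each panel) of the 9 genes, of 19 neutrophil markers and of 20 monocyte and macrophage markers in every array, by group (x axis; KO, knockout; IMQ, imiquimod; bar, mean; whisker, SD, n = 5). Knockout imiquimod replicate 4, the diamond, is at 7.27 for the 9 genes and 7.30 for neutrophil markers, above all other arrays, and at 7.32 for monocyte and macrophage markers, within their range.

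Other receptors of the same families were read next to the 9. Of 27 related lectins and Trem genes measured, 3 rose and 4 fell with imiquimod in knockout skin, 3 rose and 2 fell in control skin, and limma called 0 between genotypes under imiquimod, with 2 at an unadjusted p under 0.05. Clec4a1 and Clec4a3, relatives of Clec4a2, rose in both genotypes (limma adjusted p from 0.000181 to 0.00526). Clec4a1 rose by 1.38 ± 0.27 in knockouts and 1.73 ± 0.27 in controls (SE, n = 5 per group). Clec4a3 rose by 1.04 ± 0.25 in knockouts and 1.398 ± 0.253 in controls. Mgl2, a lectin of dermal dendritic cells, fell by 2.004 in knockouts and by 1.47 in controls, and Clec10a, its close relative, fell by 0.95 in knockouts. The list's median difference was -0.02 in knockouts and 0.02 in controls, where that of all genes was -0.002 and -0.004. Trem2, a receptor of tissue macrophages, was called in none of the 5 comparisons.

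Adaptors and signalling proteins used by these receptors were taken from a list written from background knowledge. Of 16 measured, 6 rose with imiquimod in knockout skin, led by Vav1 at 1.02, Lcp2 at 0.86 and Plcg2 at 0.52, and 5 in control skin, led by Vav1 at 0.94, Fcer1g at 0.91 and Lcp2 at 0.84. Limma called 0 of them between genotypes under imiquimod, and 0 at an unadjusted p under 0.05. Fcer1g measured 7.45 to 8.54 in imiquimod-treated knockouts, against 7.51 to 8.30 in imiquimod-treated controls, so the gene of the shared adaptor of Clec4d, Clec4e and Clec4n overlapped fully between genotypes. Tyrobp, Card9 and Tlr4 were called in none of the 5 comparisons. Syk rose in knockout skin by 0.43 ± 0.15 (limma adjusted p = 0.0392) and had a difference of 0.09 in control skin.

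Of 18 measured partners of Cd14 and genes of Toll-like receptor signalling, 10 rose with imiquimod in knockout skin and 8 in control skin, and limma called 0 between genotypes under imiquimod, with 4 at an unadjusted p under 0.05. Itgam, an integrin subunit of myeloid cells, rose by 1.90 in knockouts and 1.88 in controls. Ly96 rose by 1.11 in knockouts and 1.22 in controls. Cd14 itself had differences of 1.33 in knockouts and 0.25 in controls.

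Among 6 genes for proposed ligands, S100a8 and S100a9, which encode the subunits of calprotectin, were the 2 called. S100a8 measured 10.17 to 10.96 in imiquimod-treated knockouts, against 6.52 to 10.1 in imiquimod-treated controls, a difference of 2.04 ± 0.45 (SE, n = 5 per group; limma adjusted p = 0.0452). Pglyrp1, whose product is a proposed ligand of Trem1, was called in none of the 5 comparisons. Another list held 18 measured cytokine and chemokine genes known to be induced by these receptors. Whether the receptors induced them here was not tested. With imiquimod 15 rose in knockout skin (11.1% of all genes) and 6 in control skin (6.47% of all genes). Under imiquimod 4 were higher in knockouts (0.374% of all genes). Il1b measured 8.82, 8.72, 7.64, 11.1 and 8.03 in imiquimod-treated knockouts, against 6.08, 5.84, 6.46, 6.15 and 5.64 in imiquimod-treated controls, a difference of 2.83 ± 0.41 (adjusted p = 0.00186). Its highest value was again in knockout replicate 4. The other 3 were Ccl3 at 2.22, Il23a at 0.75 and Tnf at 0.70.

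Genes that resembled the 9 across arrays were ranked by their correlation with the mean of the standardised values of the 9. Over the 20 arrays the 10 nearest were Csf3r (r = 0.973), Tarm1 (r = 0.962), Hdc (r = 0.961), Mcemp1 (r = 0.959), Slfn4, Il1b, Trim30b, Cd80, Ltb4r1 and Plaur (r = 0.937). Csf3r, the receptor for granulocyte colony-stimulating factor, measured 5.50 to 7.92 in imiquimod-treated knockouts and 4.87 to 5.33 in imiquimod-treated controls. Csf3r, Hdc and, among the genes nearest within groups, Acod1 also stood in the neutrophil list. Without knockout imiquimod replicate 4, r was 0.925 for Csf3r, 0.882 for Tarm1, 0.900 for Hdc, 0.889 for Mcemp1 and 0.810 for Plaur. After group means were removed, the nearest over all arrays was Ptx3 (r = 0.96), followed by Fgf23 (0.941), Cxcl5 (0.938), Ccr1 (0.927) and Hdc (0.926). Without replicate 4 these were at 0.832, 0.659, 0.678, 0.711 and 0.791. These correlations share arrays and groups, and the array that stands apart weighs on them. They are given as a description.

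The 9 genes did not move as a single block. Over the 20 arrays, Clec4d correlated with Clec4e at r = 0.969, with Clec5a at 0.958 and with Trem1 at 0.922, but with Clec4a2 at 0.579. After group means were removed and knockout imiquimod replicate 4 was left out, Clec4d and Clec4e correlated at 0.696 and Clec4d and Clec5a at 0.686, while Clec4e and Trem1 were at 0.026 and Trem3 with Cd14 at -0.442. The genes nearest to Clec4a2 were Flvcr2, Il1rap and Aim2, and those nearest to Clec4n were Ms4a6d, Il33 and Akr1b8. Csf3r was the nearest for Clec4d, and Il1b for Clec4e.

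In order of level, imiquimod-treated knockouts came first for each of the 9 genes except Clec4a2, for which they averaged 4.85 and imiquimod-treated controls 4.89. The second and later places did not separate beyond the spread between arrays for Clec4d, Clec4e, Clec5a, Clec7a, Trem1, Trem3 and Cd14, since the other 3 groups overlapped. For Clec4n the order was imiquimod-treated knockouts at 6.75 ± 0.65, imiquimod-treated controls at 5.45 ± 0.34, mock-treated knockouts at 4.86 ± 0.20 and mock-treated controls at 4.52 ± 0.26 (mean ± SD, n = 5). The mock-treated genotypes at the end of that order overlapped. Levels of different genes on this array depend on their probes and were not compared as amounts.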

How the data were processed

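The labels' protocols state that 200 ng of total RNA from the abdominal skin of each of 20 mice was labelled (WT PLUS, Affymetrix). The log2 values were made by the authors before deposition, by a summarisation and normalization that the labels do not name; per the deposited table they run from 1.41 to 13.33 over 41345 probe sets with nearly equal array medians. That base 2 was used is read from this range. Detection calls were not used. Array precision is limited by the 5 arrays per group. The p-values set a difference against the spread between arrays within groups, which limma moderates over all genes. Probe sets were named through the platform annotation: 23521 had 1 gene symbol, 1814 several and 16010 no entry, and the last 2 kinds were left out. Symbols were checked against RefSeq (GRCm38.p6), which changed 0. The brightest probe set stood for a gene, and 22180 genes remained, dim ones included.

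Differences were fitted in R 4.3.3 with limma 3.58.1 (lmFit, eBayes) with 1 mean per group over all arrays (16 residual degrees of freedom), in 5 contrasts, two-sided, with Benjamini-Hochberg adjustment over all genes and a threshold of 0.05. The fit was tested on simulated data. The 9 genes and all gene lists were chosen with earlier results of these data known. Besides the 9, the text names up to 3 risers and 3 fallers past the threshold per list and comparison, a set of adaptors and ligands, and the genes most alike by Pearson correlation. A gene chosen for the text beyond this, Ly6g, Cxcr2 or Krt14, serves as a marker. Alternatives were other sets of arrays, prior variances, normalizations, filters, covariates and a replicate block. Deviations of same-numbered arrays from their group means correlated at -0.709 to 0.516, with r over 0.1 in 14 of 30 pairs. Differently numbered arrays were not compared, so whether the numbers mark pairs was not tested. The main fit did not use them as pairs.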

Additional observations from a re-analysis of the deposited data

Results flagged for a closer look

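In 4 of 36 sets of 5 arrays, 1 array stood apart from the others of its group by Dixon's criterion, which chance meets in about 1 of 20 sets. Of these, 3 were knockout imiquimod replicate 4, at 8.30 for Clec7a (the other 4 at 5.58 to 6.26), 7.27 for Trem1 (4.51 to 4.77) and 8.69 for Cd14 (5.94 to 6.65). The remaining one was mock-treated knockout replicate 5, at 3.49 for Clec4a2 (4.12 to 4.26).

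Among means of marker lists, 7 of 68 sets held such an array. The neutrophil list was at 7.30 in knockout imiquimod replicate 4 (5.94 to 6.23 in the others). Imiquimod-treated control replicate 5 was at 6.01 for dendritic and Langerhans cell markers (6.27 to 6.34), 10.124 for keratinocyte markers (10.344 to 10.392) and 10.2 for hair genes (5.38 to 6.33), and it was the lowest of its group in 7 of the 9 receptor genes. Imiquimod-treated knockout replicate 1 was at 5.07 for T cell markers (5.24 to 5.29), mock-treated knockout replicate 1 at 3.82 for B and plasma cell markers (3.99 to 4.06), and mock-treated control replicate 5 at 6.38 for hair genes (10.3 to 11.1). The part of these arrays' tissue content in the results was not tested.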

How the results depend on the processing

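With imiquimod in knockout skin 8 of the 9 genes were called. This count was 5 with only the groups of the contrast (4144 of all genes called, higher or lower), 4 without the 30% dimmest genes (4754 called; a filter that removed Clec4d, Clec4e, Clec5a and Trem1 from the test), 5 with the muscle list (4019 called) and 5 with the adipocyte list (3664 called) as a covariate, and 0 with sex-linked genes as a covariate, where 8 of all genes were called. In control skin 2 were called, and 0 with the hair list (1862 of all genes called) or with sex-linked genes (45 called) as a covariate. Between genotypes under imiquimod 3 were called, against 0 with only the groups of the contrast (17 of all genes called), 1 without the dimmest genes (134 called), 0 with the muscle list as a covariate (26 called) and 1 without the most hair-deviant array of every group (54 called), a setting chosen after seeing the data. Leaving out 1 array gave 6 to 8, 2 to 2 and 2 to 4 for these 3 counts. Over all genes these fits called 3654 to 4952, 1619 to 2989 and 45 to 174. With the replicate block the 3 counts were 8, 2 and 2, Clec4d being the gene lost (adjusted p = 0.0805). The fit with the block called 4230, 2036 and 78 of all genes. Mock-treated and interaction counts were 0 in every setting. Between genotypes under imiquimod Clec4e kept its call in 20 of 20 fits without 1 array and 10 of 13 other settings, Clec4n in 20 of 20 and 12 of 14, and Clec4d in 4 of 20 and 6 of 13. Apart from the settings whose construction shows the reason, the cause was not tested.

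Signs turned only for differences that had not passed, whose values lay between -0.188 and 0.25. In control skin with imiquimod, Clec7a was 0.072 with array weights and 0.152 without the hair-outlying arrays (-0.314 to 0.071 leaving out 1 array), Trem1 -0.025 to 0.223 leaving out 1 array, Trem3 0.078 with the hair and 0.25 with the sex-linked covariate (-0.209 to 0.031), and Cd14 -0.025 with the hair covariate. For knockout against control under imiquimod, Clec4a2 was 0.011, 0.272 and 0.09 with the hair, muscle and adipocyte covariates (-0.189 to 0.082). In mock-treated skin, Clec4d was -0.00011 with the sex-linked covariate (-0.028 to 0.104), Clec4e 0.08 with the adipocyte covariate (-0.089 to 0.026), Clec4a2 -0.011 with it (-0.039 to 0.194), Trem1 -0.081 to 0.167 leaving out 1 array, and Cd14 -0.018 with the adipocyte covariate and -0.09 without the hair-outlying arrays (-0.16 to 0.175). The difference between the responses of Clec4a2 was 0.006, 0.237 and 0.101 with the hair, muscle and adipocyte covariates (-0.239 to 0.032). The 9 genes include dim ones (Clec4e averaged 4.06 over all arrays), and without detection calls the size of their folds is uncertain.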

Other observations

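Some dendritic and Langerhans cell genes were lower with imiquimod in knockout skin, where 8 of the 9 receptor genes were called higher. Of 14 measured, 6 fell with imiquimod in knockout skin, among them H2-Aa by 1.44, H2-Ab1 by 1.36 and H2-Eb1 by 1.15, subunits of class II antigen presentation, and 1 fell in control skin. Between genotypes under imiquimod limma called 0 of the 14, with 1 at an unadjusted p under 0.05. Of all genes, 9.71% were called lower with imiquimod in knockout skin, 4.37% in control skin and 0.171% in knockouts under imiquimod. Of 8 T cell markers 1 rose and 2 fell in knockout skin, of 8 mast cell markers 2 fell, and limma called 0 of 7 B and plasma cell markers there, with 0 at an unadjusted p under 0.05. Among structural lists, 4 of 8 fibroblast markers fell with imiquimod in knockout skin and 5 in control skin, 4 of 9 keratinocyte markers rose and 1 fell in each genotype, and 1 of 7 endothelial markers fell in knockout skin and 0 in control skin. Of 7 adipocyte markers 5 fell in knockout skin and 1 in control skin, and of 8 skeletal muscle markers 6 fell and 1 rose in knockout skin and 1 rose in control skin. Hair genes differed widely between arrays, and limma called 0 of 14, although all 14 had an unadjusted p under 0.05 with imiquimod in control skin and 7 in knockout skin.

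Arg1 was called in opposite directions by imiquimod, with 0.55 ± 0.13 in knockout skin and -1.05 ± 0.13 in control skin (SE, n = 5 per group; limma adjusted p = 0.00513 and 1.67e-05). The difference between these responses was 1.60 ± 0.19 (adjusted p = 0.000723).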
